A study of Arabidopsis thaliana with 4 samples.

Results

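The comparison described here is that of low with high R:FR at 22 °C. R:FR is the ratio of red to far-red light, which falls when light has passed through or been reflected from leaves. The comparison rests on 2 of the 4 arrays of a study of Arabidopsis thaliana seedlings, 1 array for each condition. All seedlings, those of the high R:FR control included, belonged to the accession La-er and were mutant for phytochrome A, the far-red photoreceptor, through the allele phyA-2. Both groups were raised on soil at 22 °C, under 100 micromoles of white light per square metre and second with an R:FR of 4.4. The low R:FR group spent its last 24 h at an R:FR of 0.1, the high R:FR group stayed at 4.4, and both were 5 days old when harvested. RNA was taken from cotyledons together with a little hypocotyl, and the labels do not say how many plants went into an array. The other 2 arrays hold the same light conditions at 16 °C and enter only where their values are set beside those of 22 °C. Of the 22810 probe sets, 22746 were not controls, and the 13643 whose mean log2 signal over the 4 arrays was at least that of a signal of 23.2 counted as measured. The nuclear probe sets among them numbered 13539. The other 104, in the run of probe set numbers given to the organelle genomes, are described apart at the end.

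Phytochromes switch between a form made by red light and one made by far-red light, and a low R:FR returns phytochrome B to its inactive form. Active phytochrome B removes transcription factors of the PIF group, and in low R:FR these gather and are known to raise genes of auxin synthesis and response, so that hypocotyls and petioles lengthen while pigment and defence outlays fall. Phytochrome A is known to oppose part of this response in seedlings. PHYA had no named probe set, so its level was not examined.

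Pearson's r of the log2 signals on the 2 arrays of 22 °C was 0.976 over the measured probe sets, and the median signals were 39.2 in high and 40.6 in low R:FR. With 1 array a group there is no replicate check and no p-value, so genes are described as higher or lower on 1 array than on the other, and paired signals are given with that of high R:FR first. As partial scales of error, the 18 probe sets of spiked transcripts, whose signals ran from 34.5 to 3136, differed by up to 0.70 on the log2 scale, with an SD of 0.23. They do not cover plants, extraction or labelling. Control transcripts absent from the sample reached a signal of 17.9, and signals under 14.5, the floor, were set to it, so that a fold against such a value is a bound. The signal at the 3′ end over that at the 5′ end follows RNA and label quality. It was taken for 6 pairs of control probe sets, which read actin, GAPDH and ubiquitin transcripts more than once each. The ratio was lower in low R:FR in every pair, with mean log2 ratios of 0.73 (high R:FR) and 0.64 (low R:FR). Its part in the results was not tested.

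Markers of green cotyledon cells were far above the floor on both arrays. RCA, which encodes the activase of Rubisco, had signals of 4169.5 under high and 3872 under low R:FR, and PRK, the gene of phosphoribulokinase, of 2809 and 2778. Of the epidermal and stomatal markers, SPCH had signals of 55.1 and 49.1, FMA of 78.6 and 66.1, and MUTE lay below the floor. The meristem gene CLV3 was below the floor on both arrays (6 and 0.9), while PHV, which is also active in young leaves, had 56.8 and 64.9. Root hair gene EXPA7 and the seed oil body gene OLEO3 did not pass the filter. PYK10, known for its level in roots and also active in seedling shoots, had 2913 and 2834. None of the measured markers differed by 2-fold, and markers of vasculature and flower had no named probe set. In a bulk sample a smaller share of cells of a type and less RNA in each such cell cannot be told apart.

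Low R:FR went with few large differences at 22 °C. Of the nuclear probe sets 116 were at least 2-fold higher in low than in high R:FR (0.857% of those measured) and 69 at least 2-fold lower (0.51%). The median log2 change over all nuclear probe sets was 0.01 with an SD of 0.33, and 63.3% lay within 0.25 of 0. Higher probe sets made up 62.7% of those past 2-fold, but 49.7% with the arrays scaled to the same median, which gave 88 higher and 89 lower. With the probe sets cut into 4 equal parts by mean signal, the dimmest, up to 49.5, held 73 of the higher and 50 of the lower ones, and the brightest, from 199.8 up, held 4 and 2. A spread estimated from neighbours follows this dependence. It is called the local SD here and is the scaled median absolute deviation of the log2 changes of the 500 nuclear probe sets nearest in mean signal. Probe sets just inside the threshold had log2 changes of 1 and -1, and those just outside 0.99 and -0.998. Only 8 of the 116 and 8 of the 69 carried 1 gene with a symbol, and 60 and 29 had no single gene, so the named genes below are a small part of what passed 2-fold.

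**Figure D1:**
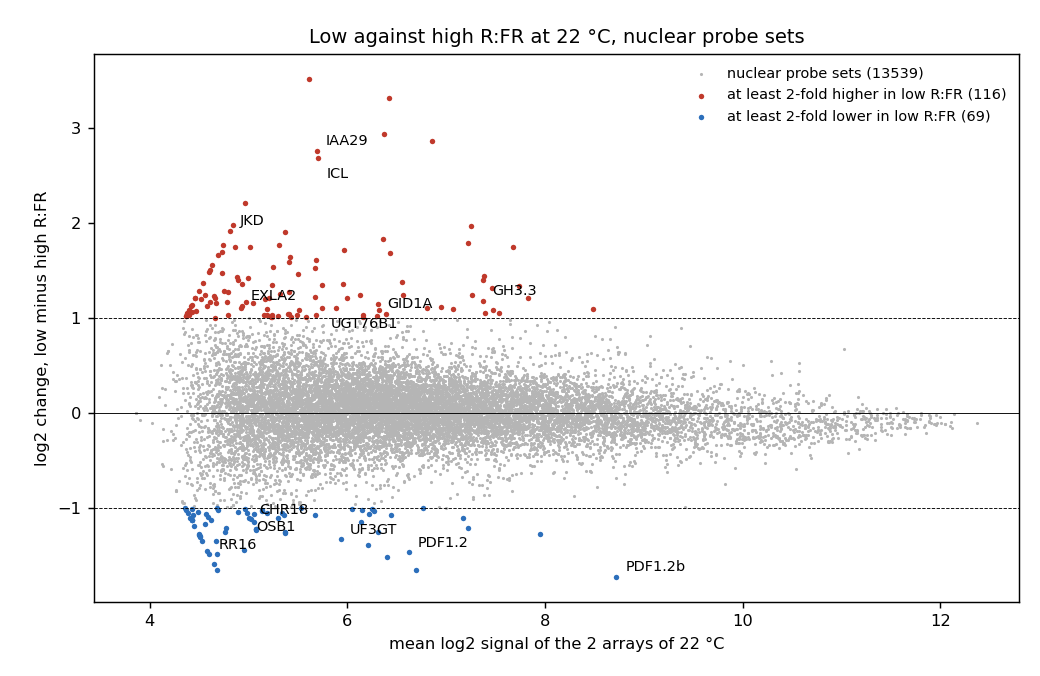
Log2 change between low and high R:FR at 22 °C (vertical axis) against the mean log2 signal of the 2 arrays (horizontal axis) for 13539 nuclear probe sets, each a point, with a floor of 14.5 under the signals. Red points are the 116 at least 2-fold higher, blue points the 69 at least 2-fold lower, and names mark genes with a symbol past 2-fold that the naming rule admits. The cloud narrows from left to right, IAA29 and ICL stand above it at dim to middling signals, and PDF1.2b stands below it on the right.

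Auxin response genes stood out among the named genes. IAA29, which encodes an Aux/IAA repressor that auxin itself induces, had a signal of 19.9 under high and 135 under low R:FR. The gene was dim on the high R:FR array, close to the brightest absent control, and 6.76-fold higher in low R:FR (log2 2.76 against a local SD of 0.32, or 1.83 once the floor is raised to 37.8, the median of all signals). GH3.3, an enzyme gene of the GH3 family that joins auxin to amino acids and so takes it out of use, had 109.9 under high and 249 under low R:FR (log2 1.18 against a local SD of 0.22). Its relative WES1, also known as GH3.5, had 154 and 269, which is 1.75-fold and short of 2-fold (log2 0.80). Of the 28 genes listed for auxin response 4 had a probe set named for them alone, and these 3 were measured. The rest could not be looked up by name. Of the 3 measured, 2 were at least 2-fold higher and 0 lower, against 0.857% and 0.51% of all nuclear probe sets. Their median was 1.18 against 0.01 over all nuclear probe sets. GH3.1 lay below the floor. Not all relatives followed them. GH3.17 had 107 and 102 (log2 -0.06), and IAA18, another Aux/IAA gene, had 133 and 149 (log2 0.17). YUC2, the gene of a flavin monooxygenase in auxin synthesis, was at 37.6 and 44.8, a difference within its local SD of 0.35.

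Few of the listed shade and light regulators could be read. HAT2, a homeodomain-leucine zipper factor that low R:FR and auxin are known to induce, had signals of 85.2 under high and 128 under low R:FR (log2 0.59 against a local SD of 0.24). BIM1, a basic helix-loop-helix factor that works with the brassinosteroid factor BES1 and in shade avoidance, had 73.9 and 126 (log2 0.77 against a local SD of 0.24). Both were higher in low R:FR, by 1.5-fold and 1.7-fold. FHL, a carrier that helps phytochrome A into the nucleus, was not measured. HYH, a bZIP relative of HY5 that promotes light-grown development, was lower, with 62.6 and 49.8, by about its local SD of 0.32 (log2 -0.33).

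Receptors of gibberellin, the hormone that releases growth from the DELLA repressors, split in direction. GID1A had a signal of 53.4 under high and 118 under low R:FR (log2 1.15 against a local SD of 0.27) and was 2.21-fold higher. With a pseudocount of the floor in its place the log2 change was 0.97. GID1B had 36.8 and 54.4 (log2 0.56). GID1C went the other way, with 35.2 and 16.5 (log2 -1.09 against a local SD of 0.61), but both its signals lie under 37.8, and the raised floor left no difference. SLY1, the F-box gene through which bound receptors send DELLA proteins to breakdown, had 80.9 and 82.1.

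Cell wall genes showed moderate differences. Of 25 listed wall-loosening genes 9 had a probe set named for them alone, and all 9 were measured. Of these, 0 passed 2-fold in either direction, with a median of 0.22. The XTH genes encode enzymes that cut and rejoin xyloglucan, the tether between cellulose fibrils. XTH19 had 57.4 under high and 112 under low R:FR (log2 0.97 against a local SD of 0.28) and XTH18 had 113 and 185 (log2 0.71 against a local SD of 0.25). The 2 stand next to each other in locus number, are near relatives, and how far their probe sets share signal was not tested. XTH33 was higher as well, with 30.5 and 46 (log2 0.59, or 0.28 with the raised floor), whereas XTH32 was lower, with 332 and 258 (log2 -0.36). Among expansins, which loosen walls in acid conditions, EXPA8 had 386 and 529 (log2 0.45 against a local SD of 0.21), while EXPA4 (log2 -0.01), EXPA15 (-0.10) and EXPB3 (-0.12) were within 1 local SD of 0. The expansin-like EXLA2 passed 2-fold with 20.7 and 45.2 (log2 1.13 against a local SD of 0.43), but its log2 change was 0.26 with the raised floor. EXLB1 had 100.5 and 143 (log2 0.50). The lowest were EXPA16 (log2 -0.48 against a local SD of 0.42) and EXLA3 (-0.42 against 0.61), with signals under 37.8 on both arrays. Over the 11 measured expansin and expansin-like genes the median was -0.01, with 1 at least 2-fold higher and 0 lower. The shares over all nuclear probe sets were 0.857% and 0.51%. EXO, a gene of cell expansion and brassinosteroid response, was among the 20 lowest named changes, with 108 and 63.5 (log2 -0.76). COB, which guides cellulose deposition, was at 578 and 667 (log2 0.21).

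**Figure D2:**
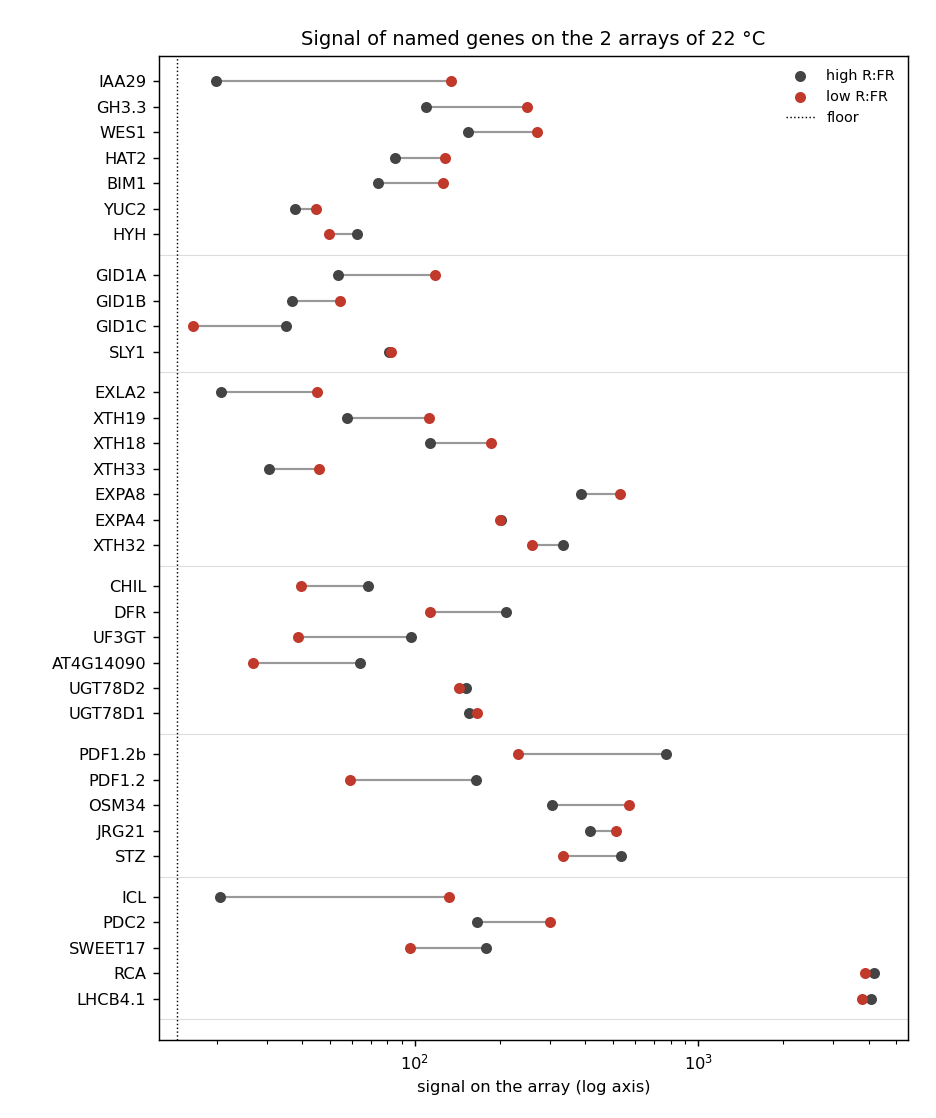
Signal of 34 named genes on the high R:FR array (dark points) and the low R:FR array (red points) of 22 °C, 1 array each, on a log axis, with the floor of 14.5 as a dotted line. From top to bottom the blocks hold auxin and shade genes, gibberellin genes, wall genes, anthocyanin genes, defence genes and carbon genes. The red point lies to the right for IAA29 and ICL and to the left for UF3GT, DFR, PDF1.2 and PDF1.2b.

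Of 31 listed flavonoid and anthocyanin genes 8 had a probe set named for them alone. Of these 7 were measured, 0 at least 2-fold higher and 2 lower in low R:FR. Over all nuclear probe sets 0.857% were higher and 0.51% lower. The list median was -0.79 against 0.01 over all. DFR, the reductase that commits flavonoids to anthocyanin, had a signal of 209 under high and 114 under low R:FR, 1.84-fold lower and short of 2-fold (log2 -0.88 against a local SD of 0.22). UF3GT, a xylosyltransferase gene of anthocyanin, had 96.9 and 38.6 (log2 -1.33 against a local SD of 0.28), and AT4G14090 (UGT75C1), an anthocyanin glucosyltransferase gene, had 63.9 and 26.8 (log2 -1.25 against a local SD of 0.35). Both passed 2-fold, the second not under the raised floor (-0.76). CHIL, a chalcone isomerase-like protein gene upstream of both branches, was also lower, with 68.5 and 39.7 (log2 -0.79 against a local SD of 0.33). The flavonol rhamnosyltransferase genes UGT78D1 (log2 0.09) and AT1G06000 (UGT89C1, 0.04) and UGT78D2 (-0.08), a glucosyltransferase of flavonols and anthocyanidins, were within 1 local SD of 0. AT5MAT, an anthocyanin acyltransferase gene, did not pass the filter.

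Nuclear photosynthesis genes differed little. The antenna gene LHCB4.1 had signals of 4089 under high and 3774 under low R:FR, LHCB4.2 of 1506 and 1164, and LHCB4.3 of 308 and 363, so that LHCB4.2 was lower (log2 -0.37, local SD 0.17) and LHCB4.3 higher (0.24, local SD 0.19). The 6 measured genes of photosystem and electron transport proteins, PSAN, PSAE-1, PSBW, PSBY, ATPC1 and ATPC2, had a median of -0.09, or 0.003 with quantile normalization. The brightest of the 4 parts of the probe sets had a median of -0.04. ATPC2, a second gene for the gamma subunit of the chloroplast ATP synthase, was the exception with 60.9 and 30.6 (log2 -0.99, local SD 0.33), just short of 2-fold. The Calvin cycle genes RCA, SBPASE and PRK lay between -0.11 and -0.02.

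Genes of chlorophyll and carotenoid synthesis lay mostly a little below 0, 8 of 9 of them and none by 2-fold. Their median was -0.23, or -0.14 with quantile normalization, beside the -0.04 of the brightest probe sets. The largest were HEME2, for a decarboxylase of the shared porphyrin pathway, with 562 under high and 414 under low R:FR (log2 -0.44 against a local SD of 0.19), and HEMB1, for the enzyme that makes porphobilinogen, with 852 and 660.2 (log2 -0.37 against a local SD of 0.20). GSA1, an earlier step, was at log2 -0.29, and AT1G74470, the geranylgeranyl reductase gene, at -0.24. The late step genes CHLM and PORB were at -0.13 and -0.06, or -0.05 and -0.001 with quantile normalization. CHLI2, a minor subunit gene of magnesium chelatase, went the other way, 1.24-fold higher (log2 0.31).

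ICL encodes isocitrate lyase, an enzyme of the glyoxylate cycle through which seedlings turn stored oil into sugar. The gene had a signal of 20.5 under high and 132 under low R:FR. It was 6.43-fold higher in low R:FR (log2 2.68 against a local SD of 0.32, or 1.80 with the raised floor), from a level close to the brightest absent control (17.9). Only 4 of the 21 listed genes of the glyoxylate cycle and fatty acid breakdown had a probe set named for them alone, and all 4 were measured. The 3 besides ICL, none of them a glyoxylate cycle enzyme, did not share this difference. SDP1, the lipase gene that opens oil breakdown, had 79.2 and 94.7, and AIM1, a gene of beta-oxidation, had 308 and 339, with log2 changes of 0.26 and 0.14. PPDK, which serves glucose synthesis from reserves, was at 209.9 and 179 (log2 -0.23). PDC2, a pyruvate decarboxylase gene of fermentation, was higher with 165 and 301 (log2 0.87 against a local SD of 0.21), short of 2-fold. SWEET17, a vacuolar fructose transporter gene, was lower with 179 and 96.1 (log2 -0.90 against a local SD of 0.25). The 6 listed sugar and starch genes that were measured had a median of 0.13, and only APL3, a subunit gene of ADP-glucose pyrophosphorylase, went beyond 0.26 in size, with 28.7 and 17.3, both under the median of all signals.

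**Figure D3:**
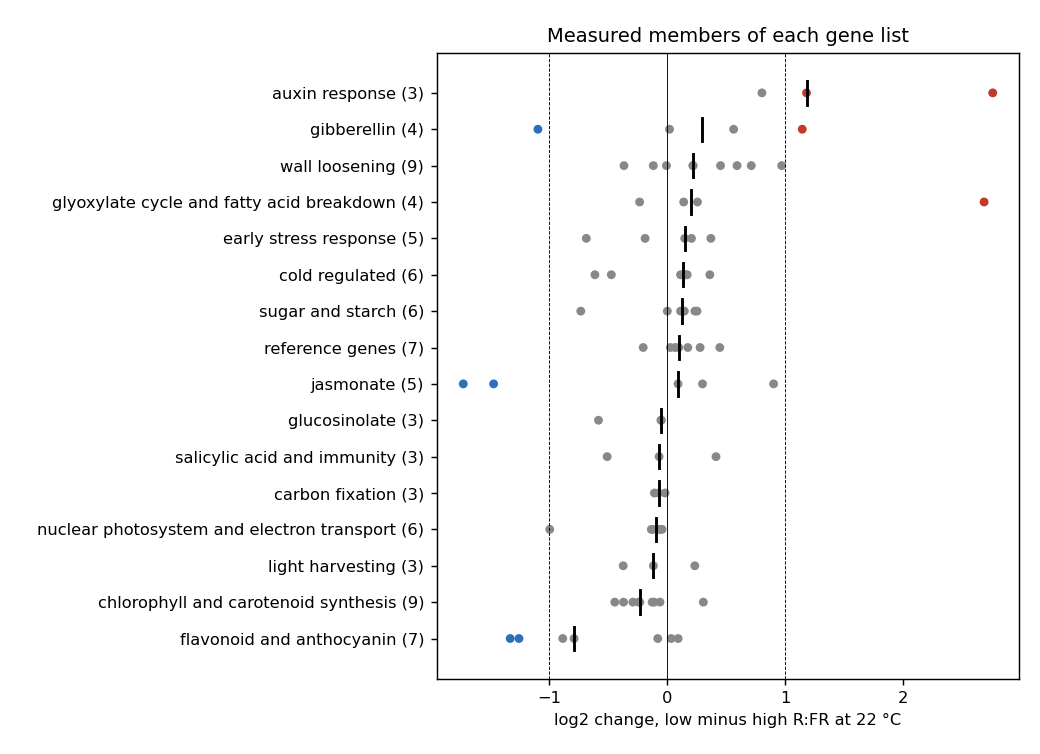
Log2 change between low and high R:FR at 22 °C of each measured gene of the 16 lists with at least 3 measured genes (number in parentheses), each gene a point and the list median a black bar, from the highest median at the top. Red points are at least 2-fold higher, blue points at least 2-fold lower, and dashed lines mark 2-fold. The auxin median lies at 1.18 and the flavonoid and anthocyanin median at -0.79, with the reference genes at 0.10.

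Defence genes differed in both directions. The plant defensin genes PDF1.2 and PDF1.2b, markers of the joint jasmonate and ethylene response, were among the lowest named changes. PDF1.2b had a signal of 767 under high and 232 under low R:FR (log2 -1.73 against a local SD of 0.21) and PDF1.2 of 164 and 59.2 (log2 -1.47 against a local SD of 0.24). These differences, 3.31-fold and 2.77-fold lower in low R:FR, were the same under the raised floor. The 2 genes are close paralogs, and the array design marks the PDF1.2b probe set as shared with other sequences, so the 2 may not be separate readings. Their relative PDF1.4 was at 220.0 and 269.8 (log2 0.29). Other jasmonate-linked genes lay higher: the osmotin-like OSM34 had 306 and 571 (log2 0.90 against a local SD of 0.21), and JRG21, an oxygenase that hydroxylates jasmonate, had 416 and 513 (log2 0.30). The thionin gene THI2.2 was at 0.09. Over the 5 measured genes of the jasmonate list 0 were at least 2-fold higher and 2 lower, the paralogs PDF1.2 and PDF1.2b, with a median of 0.09. Over all nuclear probe sets 0.857% were higher and 0.51% lower, with a median of 0.01.

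In the salicylic acid and immunity list GRX480, a glutaredoxin gene, was at log2 0.41, the regulator WRKY53 at -0.07 and SAG101 at -0.51, the last on signals under the median. STZ (ZAT10), a zinc finger repressor gene of early stress, was lower with 534 under high and 333 under low R:FR (log2 -0.68 against a local SD of 0.21). The ubiquitin ligase genes PUB22, PUB23, PUB24 and PUB19 of the same list lay between -0.19 and 0.37. BCAT4, an aminotransferase that starts the lengthening of methionine for aliphatic glucosinolates, was lower with 1191 and 797 (log2 -0.58 against a local SD of 0.20). The glucosyltransferases of glucosinolate synthesis, UGT74B1 and AT2G31790 (UGT74C1), were both at -0.05. UGT76B1, which glucosylates small immune signals, was 2.14-fold higher with 36.6 and 78.4 (log2 1.099 against a local SD of 0.31), and its log2 change was 0.86 with a pseudocount.

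Among genes of other hormones, RR16, a response regulator that damps cytokinin signalling, had signals of 40.7 under high and 13.1 under low R:FR. It was at least 2.81-fold lower, but dim, with a log2 change of -0.11 under the raised floor. ARR15, of the same class, was at 19.9 and 27.6. EIN3, the ethylene transcription factor, had 326 and 395 (log2 0.27). GI, a clock and flowering gene, was at 142 and 199.5 (log2 0.49 against a local SD of 0.23), and XCT, needed for clock pace, at 34.7 and 63.4 (log2 0.87). None of the 6 measured cold-regulated genes passed 2-fold at 22 °C, where their median was 0.14. COR47 had 516 and 581, and for COR15A, COR15B, COR27, LTI30 and AT4G33980 both signals lay under 37.8. Listed genes of brassinosteroid, abscisic acid, heat shock and nitrogen had no measured probe set with a single gene.

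Further named genes at the high end came from scattered functions. JKD, a zinc finger factor of tissue patterning in roots, had signals of 8.7 under high and 54.8 under low R:FR. That is at least 3.78-fold higher, with the high R:FR signal under the floor and a log2 change of 0.54 under the raised floor. MGL, a methionine gamma-lyase, had 57.6 and 108, and FIS1B, a gene of organelle division, had 53 and 99, which is 1.88-fold and 1.87-fold higher. ATG8G, of the autophagosome coat, was at 33 and 57.2. Also within the 20 highest were SIS (log2 0.91), SETH5 (0.93), PRAF1 (0.73) and the tetraspanin TET5 (0.73, but 0.10 under the raised floor).

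At the low end, CHR18, a SNF2-type chromatin remodeller, had signals of 47.9 under high and 22 under low R:FR and OSB1, a mitochondrial single-stranded DNA binding protein, of 45.7 and 22. Both passed 2-fold, and neither did under the raised floor (-0.34 and -0.27). ASF1B, a histone chaperone of replication, was at 63.6 and 33.2 (log2 -0.94 against a local SD of 0.33), and PRL, which encodes a subunit of the replicative MCM helicase, at 119.8 and 103 (log2 -0.22). LEP, an AP2-type factor of leaf development, had 38.9 and 19.6, and the calmodulin-like CML38 had 41.2 and 22.1, dim values whose differences shrank to -0.04 and -0.12 with that floor. The remaining lowest named genes, ATZW10, TO2, ZCW7, ENGase85B and the cyclophilin CYP59, lay between -0.96 and -0.65. Their low R:FR signals were dim too, and under the raised floor ENGase85B was at -0.06 and the others between -0.45 and -0.39.

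The 7 measured reference genes, used elsewhere because their level is held to vary little, had a median of 0.10, from -0.20 for AT5G15710 to 0.45 for AT2G28390, and 0 passed 2-fold. PEX4 (UBC21) had 220.0 and 231.

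Several of the largest differences belong to probe sets with a locus tag or with no gene here. AT5G02540 had a signal of 77.4 under high and 302 under low R:FR (log2 1.96 against a local SD of 0.22), well above the floor on both arrays. AT1G64380 had 34.4 and 113, AT2G47780 had 24.2 and 75.5, and AT3G02480, under the floor in high R:FR, was at least 4.61-fold higher with 66.9 in low R:FR. On the lower side AT5G62360 had 183 and 58.3 (log2 -1.65 against a local SD of 0.23) and AT3G21300 had 119 and 45.6 (log2 -1.39 against a local SD of 0.26). Among nuclear probe sets that reached 37.8 on at least 1 of the 2 arrays, 12 of the 20 highest changes had no single gene, and 6 of the 20 lowest. The probe set with the highest change, 245276_at, had 13.9 under high and 166 under low R:FR, at least 11.4-fold higher, and the next, 259417_at, had 27.1 and 270.2, 9.97-fold higher. Of those without a gene on the lower side, 258321_at had 143 and 49.9.

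The same light contrast at 16 °C uses none of these arrays, and its values are given side by side. There 224 nuclear probe sets (1.65%) passed 2-fold upwards and 394 (2.91%) downwards. Of the 116 higher at 22 °C, 36 were also at least 2-fold higher at 16 °C, which is 31.0% of the former and 16.1% of the latter list, and 83 (71.6%) had a change above 0 against 50.7% of all nuclear probe sets. Of the 69 lower at 22 °C, 8 were also at least 2-fold lower at 16 °C, 11.6% and 2.03% of the 2 lists, and 38 (55.1%) had a change below 0 against 48.9% of all. Across all nuclear probe sets, which are not independent of each other, Pearson's r of the 2 sets of changes was 0.15 and Spearman's rho 0.10.

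Genes that were higher at both temperatures included IAA29, with a log2 change at 16 °C of 2.66, GH3.3 with 1.003 and WES1 with 1.33. AT5G02540 was at 2.21, and the 2 leading probe sets without a gene at 3.42 and 3.63. On the lower side AT5G62360 was at -1.63, PDF1.2b at -2.31 and AT4G14090 at -1.22. ICL lay under the floor on both arrays of 16 °C (3.2 and 3.5), so it has no change there. GID1A was at -0.33, GID1B at -0.53 and EXLA2 at -0.33 at 16 °C, against 1.15, 0.56 and 1.13 at 22 °C. OSM34 and JRG21, higher at 22 °C, were at -1.85 and -1.65 at 16 °C. For PDF1.2b, OSM34 and JRG21 the low R:FR signal of 16 °C lay under the floor. For the 2 leading probe sets without a gene, 245276_at and 259417_at, it was the high R:FR signal of 16 °C. The changes of these 5 at 16 °C are therefore bounds. Whether these responses differ between temperatures was not tested, since no condition was repeated.

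**Figure D4:**
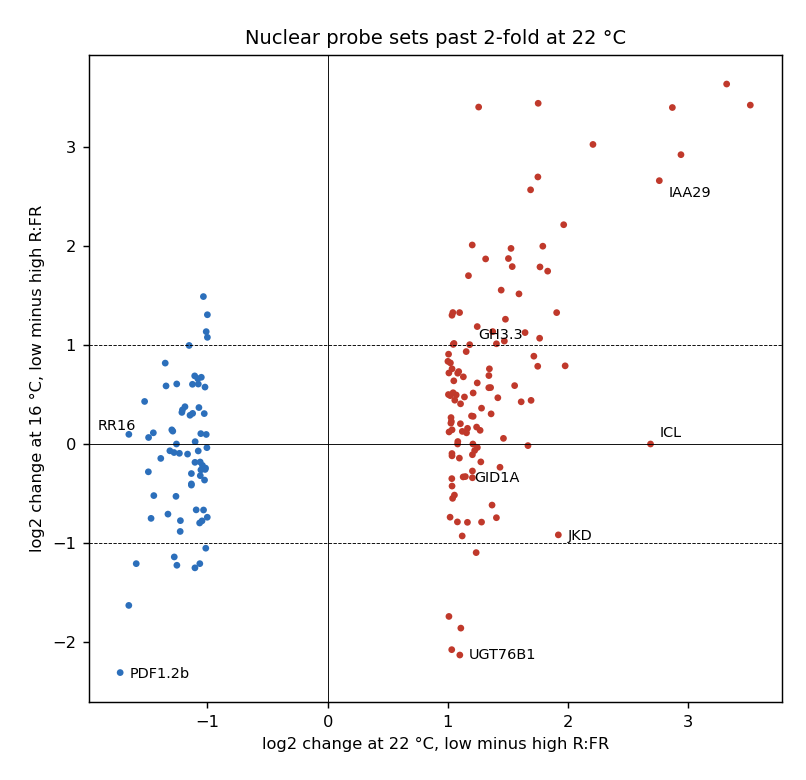
Log2 change between low and high R:FR at 16 °C (vertical axis) against that at 22 °C (horizontal axis) for the 185 nuclear probe sets past 2-fold at 22 °C, red for the 116 higher and blue for the 69 lower, with a floor of 14.5 under the signals and dashed lines at 2-fold. IAA29 and 35 other red points lie above the upper dashed line, 8 blue points lie at or below the lower one, and ICL lies at 0 because both its 16 °C signals are under the floor.

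Chloroplast-encoded transcripts formed a separate pattern. These genes sit on the plastid genome and encode core proteins of the photosystems, the cytochrome complex, the ATP synthase, the NDH complex and the plastid's own ribosome and RNA polymerase. Of the 104 measured probe sets in the organelle run of numbers 22 were at least 2-fold higher in low R:FR (21.2%) and 0 lower (0%). RefSeq places 69 of the run on the chloroplast genome, of which 68 were measured, 18 of them at least 2-fold higher, with a median log2 change of 0.42 and 60 above 0. The labels name the array maker's standard labelling and do not say how it was primed, so how far these signals follow transcript level, for RNAs with short tails or none, was not tested.

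The largest difference was that of psbB, for an antenna protein of the photosystem II core, with a signal of 132 under high and 534 under low R:FR (log2 2.02). Next came atpF, for an ATP synthase subunit, with 168 and 524 (1.64), accD, for a subunit of the plastid acetyl-CoA carboxylase, with 107 and 284 (1.41), and ndhK with 245 and 641 (1.39). All 4 were well above the floor on both arrays. rbcL, for the large subunit of Rubisco, had 135 and 319 (log2 1.24), and psbD, for a reaction centre protein, 443 and 1015 (1.197). By complex, 4 of 6 ATP synthase probe sets passed 2-fold with a median of 1.02 and 4 of 9 of the NDH complex with 0.64. For photosystem II it was 3 of 15 with 0.41, and for the cytochrome complex 0 of 6 with 0.33. RNA polymerase genes had 1 of 4 with 0.66 and photosystem I genes 1 of 5 with 0.35. Some barely passed, with atpH, ndhE and atpA at 1.02. With the arrays scaled to the same median, 17 of the 104 organelle probe sets passed 2-fold upwards in place of 22. Small and large ribosomal subunit genes had medians of 0.23 and 0.21, with 1 of 8 and 1 of 7 past 2-fold. The difference went with signal: of 24 probe sets with a mean signal of at least 1000, 1 passed 2-fold and the median was 0.14, and of 44 dimmer ones 17 passed and the median was 0.63. At 16 °C 27 of the 104 were at least 2-fold higher (26%) and 2 lower (1.92%), and of the 68 on the chloroplast genome 19 and 0. Of the 18 higher at 22 °C, 10 passed 2-fold upwards at 16 °C too, 55.6% of those 18 and 52.6% of the 19, psbB (log2 2.84) and accD (2.48) among them. The other 8 did not, and 2 of the 18 had a change below 0 at 16 °C, rbcL (-0.38) and rpl14 (-0.25 against 1.14 at 22 °C), a ribosomal protein gene.

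**Figure D5:**
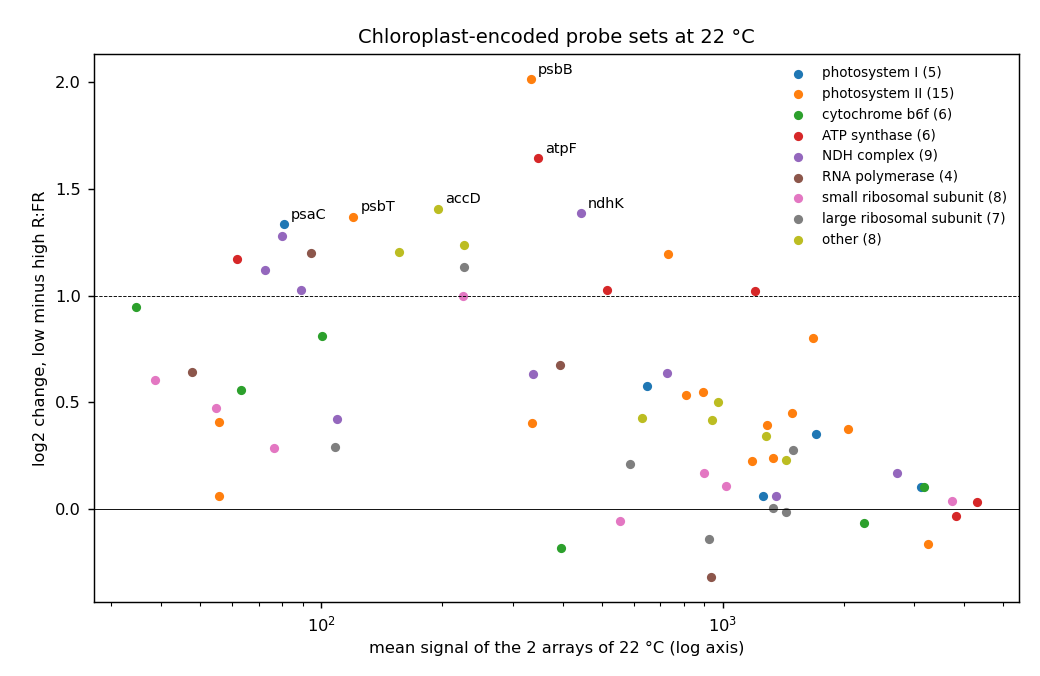
Log2 change between low and high R:FR at 22 °C (vertical axis) of the 68 measured chloroplast-encoded probe sets against the mean signal of the 2 arrays (horizontal log axis), 1 point a probe set, coloured by protein complex with the number of probe sets in parentheses. Points past 2-fold (dashed line) lie almost all under a mean signal of 1000, with psbB highest at 2.02, and points above 1000 lie nearer 0.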

How the data were processed

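The authors deposited a linear intensity for each probe set on each array, and per the submitters' processing notes it came from MAS5. Its settings and detection calls, a genome build and array dates were not given in the sources used here, so batches were not tested and no coordinates are printed. As deposited, the arrays already shared 1 mean without the highest and lowest 2%, and the main analysis scaled them no further. Signals under the 30th percentile of all (14.5) were set to it, and log2 was taken. Probe sets whose mean log2 over the 4 arrays was below the 40th percentile (23.2) were left out, as were 64 controls. Array depth is the number of arrays, 1 a group, which limits precision. No test was run.

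Gene names came from the platform annotation, updated through RefSeq's table. Of 22746 probe sets 13513 had 1 gene (13436 matched), 503 had several and 8730 none. Named are the 20 highest and 20 lowest changes among nuclear probe sets with a symbol and a brighter signal of at least 37.8, the median of all, the 10 highest and lowest without the demand for a symbol, and members of 28 gene lists, 7 marker lists and 34 families (all measured members of those with up to 12). Of 584 listed genes 100 had a probe set that the annotation gives to them alone, and 94 were measured. The others were not found by name, which does not show that the array lacks them. A few probe sets without a gene, and chloroplast genes, were named after their values were seen. The comparison, the lists and the rules were chosen with earlier results of these data known. Planned promoter motifs were not analysed here for want of sequences. The counting code was tested on simulated data with large changes placed in bright probe sets. That test does not cover dim signals or changes near 2-fold. Python 3.11.15, numpy 2.4.6 and pandas 2.3.3 were used.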

Additional observations from a re-analysis of the deposited data

Results flagged for a closer look

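UGT76B1, a glucosyltransferase gene, was marked because its difference between low and high R:FR had opposite directions at the 2 temperatures. At 22 °C its signal was 36.6 under high and 78.4 under low R:FR (log2 1.099), and at 16 °C it was 63.5 and 7.5 (log2 -2.13, a bound, since the latter lies under the floor). With 1 array a condition the difference between the temperatures was not tested. Among all nuclear probe sets 9 passed 2-fold in opposite directions at the 2 temperatures. They were 5 of the 116 higher at 22 °C, beside 2.91% of all nuclear probe sets lower at 16 °C. The other 4 came from the 69 lower at 22 °C, beside 1.65% of all higher at 16 °C. Of the 5, 4 had the lowest of their 4 signals in low R:FR at 16 °C. Their selection left only that signal or the high R:FR one of 22 °C as the lowest, so no conclusion is drawn.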

How the results depend on the processing

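No paired analysis was possible because each condition has 1 array. For the same reason no array could be left out. The counts of nuclear probe sets at least 2-fold higher (116) and lower (69) in low R:FR at 22 °C depended on the treatment of dim signals and on the fold asked for. They were 44 and 18 when the floor was raised to 37.8 (the 50th percentile), 48 and 16 when a pseudocount replaced the floor, and 34 and 16 with a filter at the 60th percentile. With 1 mean per gene, over probe sets with 1 gene only, they were 53 and 40, and at 3-fold they were 25 and 4. At 3-fold 2 probe sets with organelle numbers were higher, against 22 at 2-fold, or 17 at 2-fold with the arrays scaled to the same median. Scaling to the same median gave 88 and 89, and quantile normalization 92 and 75. Both moved the median of all nuclear probe sets, 0.01, by less than 0.1 (to -0.04 and -0.01). Of the 28 named genes past 2-fold, which include members of lists, all 28 passed it under either scaling and with the floor at the 10th percentile, 19 with the pseudocount and 12 with the raised floor. Under these 5 alternatives none of the 16 list medians moved by more than the SD of the spiked transcripts, 0.23. Genes with several probe sets, 61 of them, had an SD of 0.34 between the changes of their probe sets. Counting numbers of the organelle run that carry a nuclear locus tag as nuclear, an alternative chosen after seeing the data, left all counts as they were. The motif shares in promoters were not run, and no sequences are shown.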

Other observations

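Gene families with mixed roles showed mostly small differences between low and high R:FR at 22 °C. Of 25 measured UDP-glycosyltransferase genes, which attach sugars to hormones, pigments and defence compounds, 1 was at least 2-fold higher (UGT76B1) and 1 lower (UF3GT), with a median log2 change of 0.12. Over all nuclear probe sets 0.857% were higher and 0.51% lower, with a median of 0.01. After UGT76B1 came UGT76E11 with signals of 43.7 under high and 64 under low R:FR and UGT74D1, which can glucosylate auxin, with 176 and 254 (log2 0.53 against a local SD of 0.21). The lowest after UF3GT were UGT80B1, a sterol glucosyltransferase gene, at -0.28 and UGT88A1 at -0.19. The 10 measured beta-glucosidase genes had 0 past 2-fold and a median of 0.30, with 8 above 0, from BGLU45 with 42.2 and 55.7 to BGLU42 with 78.8 and 61.9. BGLU45 and BGLU46, linked to the release of lignin precursors, were at 0.40 and 0.37.

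Of 5 measured basic helix-loop-helix genes matched by symbol, 4 were below 0, with a median of -0.21 and 0 past 2-fold. The median over all nuclear probe sets was 0.01. All 5 belong to the group known for the iron deficiency response: bHLH115 had 232 under high and 159 under low R:FR (log2 -0.54 against a local SD of 0.25), bHLH34 was at -0.24, ILR3 (bHLH105) at -0.21, bHLH121 at -0.11 and bHLH104 at 0.23. The 6 measured WRKY genes had a median of 0.08 and lay between -0.24 and 0.31, 7 cytochrome P450 genes had 0.08, and 7 tubulin genes lay between 0.03 and 0.28. The 5 class III peroxidase genes ranged from -0.69 for AT2G41480, on dim signals, to 0.36 for Prx37, with 80.1 and 103. Among 6 glutathione transferase genes GSTU20 was lowest, with 1671 and 1308 (log2 -0.35 against a local SD of 0.16), and GSTF4 highest, with 26.3 and 39.6. The 6 measured genes of the cellulose synthase superfamily had a median of 0.13, and 0 passed 2-fold. The highest were the xyloglucan-synthesis relatives CSLC5 and CSLC04, at 0.48 and 0.35. Their signals were 106 and 147 for the former and 295 and 377 for the latter. ATCSLC08 was at 0.16, CSLC6 at 0.10, CSLD2 at 0.04 and CSLA03 at -0.33.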
